A study of Homo sapiens with 40 samples.

Results

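Transcript levels of 9 genes of the KEAP1-NRF2 antioxidant pathway are described here across 40 RNA-seq libraries of HEK293T cells, a transformed human embryonic kidney line. They are NFE2L2, which encodes NRF2, its inhibitor KEAP1, and the target genes HMOX1, NQO1, TXN, TXNRD1, SRXN1, PGD and OSGIN1. The 9 members were taken by symbol from a table of 28278 gene symbols, and 9 of 9 were among the 16739 genes with enough counts to be tested. Every group derives from the same ATCC cell line. WT-vector cells carry the empty vector in unedited cells, and KO-vector cells carry it after SLC25A12, the gene of a mitochondrial aspartate and glutamate carrier, was targeted with the guide sgSLC25A12. Further lines are labelled as sgSLC25A12 cells given SLC25A12-WT, SLC25A12-F137S, or SLC25A12-F137S together with dMTS-DELE1, hereafter F137S cells and dMTS-DELE1 cells for short. The labels do not say whether a line is 1 clone or a pool. Antimycin A, which blocks complex III of the respiratory chain, was given at 40 nM, and each of the 5 lines was sampled after 6 hours with it or with vehicle, in 4 libraries per group.

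NRF2 is a transcription factor that KEAP1 holds in the cytoplasm and delivers to a CUL3 ubiquitin ligase for degradation. Oxidants and electrophiles modify cysteines of KEAP1, NRF2 then accumulates, pairs with a small MAF protein and binds antioxidant response elements of genes for quinone reduction, heme breakdown, thioredoxin recycling and NADPH supply. Much of this control acts on the NRF2 protein, which was not measured here, and BACH1 represses several of the same genes, HMOX1 above all.

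The core letters of the antioxidant response element, TGACNNNGC on the gene's strand or GCNNNGTCA when the element lies on the other strand, were searched in RefSeq promoter windows of GRCh38.p14 that run from 250 bases before a transcript start to 50 bases after it. Of 35116 windows over all genes, 4687 (13.3%) held a match. For the members, 8 had an entry with 11 windows in all, and 4 windows in 3 genes held a match. HMOX1 had no entry. The stretches are printed to show the letters that the pathway's DNA element takes in these members, on the strand of the gene and with the matched bases in capitals. The TXNRD1 windows lie at chr12:104215670-104215699 (plus strand, match 99 bases before a start) and chr12:104286920-104286949 (plus strand, 102 bases before another start). The PGD window lies at chr1:10398853-10398882 (plus strand, 201 bases before the start), and the KEAP1 windows at chr19:10502806-10502835 and chr19:10502783-10502812 (minus strand, 54 and 31 bases before a start at 10502771). The window of the other KEAP1 start, at 10503356, held no match. The first TXNRD1 start has a further match on the other strand, which begins 8 bases before it. This match reaches into the transcript and is not printed.
TXNRD1, first start: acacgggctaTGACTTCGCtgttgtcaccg
TXNRD1, second start: gtggatttctGCTTTGTCAttctgactctg
PGD: cctcgccgggGCAATGTCAtctaggtgctc
KEAP1, farther match: acttttattgTGACACGGCgggcgcccggc
KEAP1, nearer match: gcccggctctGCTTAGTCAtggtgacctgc
A match is a description of letters and not of binding, and a window without one says only that these letters are not within it.

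Library totals ran from 30730335 to 31965438 counts. Levels are CPM, counts relative to a library total scaled by the TMM method, as mean ± SD of 4 libraries, and log2 fold changes stand with a standard error. A gene rose, fell, or was higher or lower where its p from edgeR's quasi-likelihood test, adjusted by Benjamini-Hochberg over all 16739 tested genes, was under 0.05. The labels call the 4 libraries of a group biological replicates but do not say whether they come from separate cultures. The p-values thus measure the spread between these libraries, which may in part be technical. In vehicle, SLC25A12 itself stood at 38.7 ± 1.82 CPM in WT-vector cells, at 3.08 ± 0.23 in KO-vector cells and at 1853 ± 18.3 and 3716 ± 25.7 in the F137S and dMTS-DELE1 lines. The libraries labelled KO plus SLC25A12-WT stood at 38.9 ± 0.33 CPM, and 0 of 16739 genes separated them from WT-vector cells in vehicle by edgeR (778 at an unadjusted p under 0.05, and 0 by the DESeq2 Wald test). Their label is therefore in doubt, and they are referred to as the labelled libraries. Summed levels of 10 HEK293 marker genes ran from 804 to 1035 CPM per library. Those of 10 mature kidney genes ran from 5.48 to 14.1 CPM and those of 10 genes of other cell types from 20.2 to 27.1 CPM. The genes of a list were uneven. Over the 4 WT-vector vehicle libraries, the HEK293 markers VIM, PAX2 and LHX1 had 48699, 348 and 57 counts. The kidney genes LRP2 and UMOD had 1147 and 0, and COL1A1 of the other cell types had 2221.

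The 9 genes did not move as a block. In vehicle, NQO1, HMOX1, PGD and TXNRD1 were higher in KO-vector than in WT-vector cells while KEAP1, SRXN1 and TXN were lower, so 7 of 9 members were called, where 48.3% of all tested genes were called. Antimycin A raised NQO1, NFE2L2, SRXN1, KEAP1 and PGD in WT-vector cells and lowered HMOX1, 6 of 9 members beside 51.9% of all tested genes. The sizes ranged widely. NQO1 and HMOX1 differed by 1.95-fold and 1.65-fold between KO-vector and WT-vector cells, whereas TXNRD1 differed by 1.06-fold. In bulk RNA a higher level in every cell and a larger share of expressing cells cannot be told apart. Per kilobase of exon (GENCODE release 29), the level in WT-vector cells in vehicle was highest for TXN at 265 CPM per kb, followed by PGD at 77.2, TXNRD1 at 43.2, KEAP1 at 26.6, SRXN1 at 24.1, HMOX1 at 13.9, NFE2L2 at 13.6, NQO1 at 10.2 and OSGIN1 at 0.209. HMOX1 and NFE2L2 lay within their SDs of 0.58 each.

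**Figure D1:**
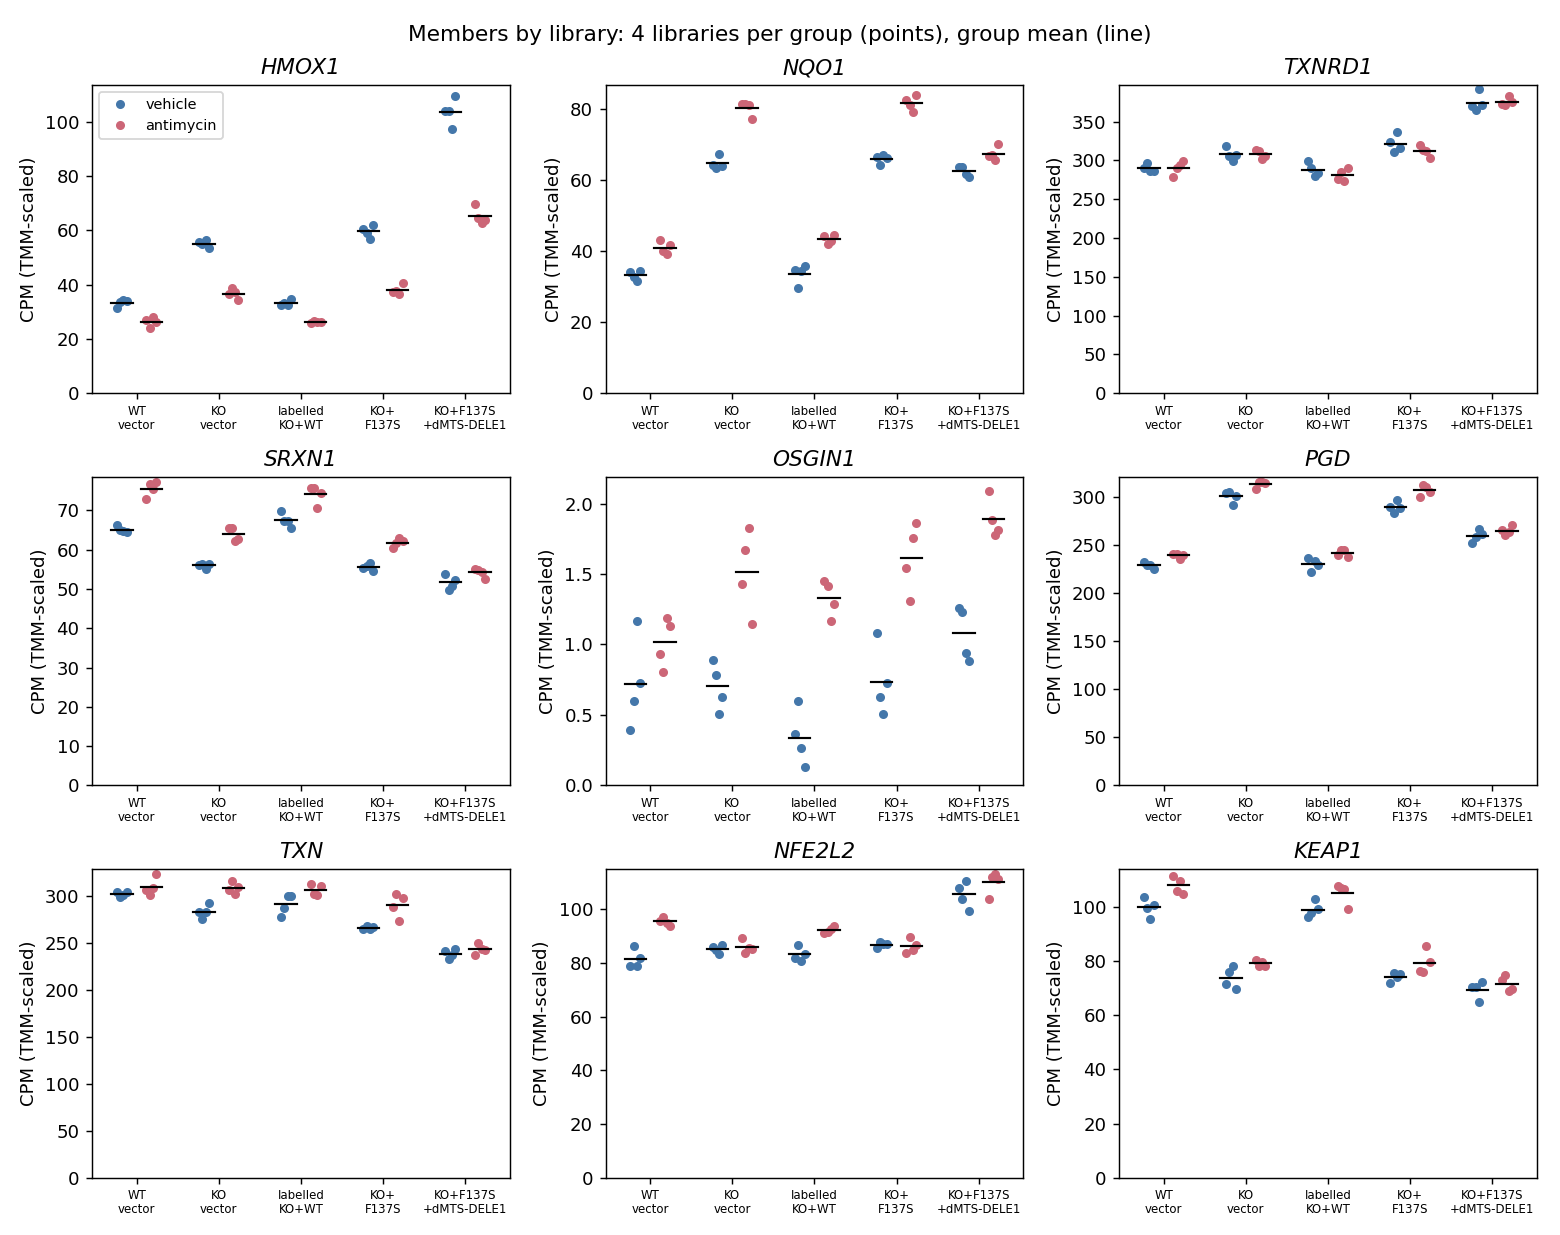
CPM of each of the 9 members (vertical axis, a scale for each gene) in every library of the 5 lines, vehicle and 40 nM antimycin A apart, with points for libraries and short lines for group means. HMOX1 lies lower under antimycin A than in vehicle in each line, and NQO1 falls into a low level in WT-vector cells and the labelled libraries and a high level in the other lines.

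NFE2L2 (chr2:177230303-177264727, GRCh38.p14 as for each gene position below), the gene of NRF2, was most abundant in dMTS-DELE1 cells. Its libraries read 78.9, 86.2, 78.7 and 81.7 CPM in WT-vector cells, 85.8, 84.7, 83.2 and 86.8 for KO-vector cells, 85.3, 87.6, 87.2 and 86.8 in F137S cells, and 108, 104, 111 and 99.5 in dMTS-DELE1 cells. Those of dMTS-DELE1 cells lay above all the others, and those of WT-vector and KO-vector cells overlapped. The log2 difference between dMTS-DELE1 and F137S cells was 0.28 ± 0.03 (1.22-fold, adjusted p = 3e-12), and that between KO-vector and WT-vector cells was 0.07 ± 0.03 (adjusted p = 0.082). The latter passed without replicate 2 of the WT-vector vehicle libraries (0.09, adjusted p = 0.017) and under 5 other alternatives, at adjusted p from 0.023 to 0.046. F137S cells were higher than WT-vector cells by 0.09 ± 0.03 (adjusted p = 0.011), with overlap, and this call was lost without replicate 1 or 3 of the WT-vector libraries (adjusted p = 0.070 and 0.082).

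Antimycin A raised NFE2L2 in WT-vector cells, whose treated libraries read 95.7, 97.1, 95 and 93.9 CPM. The treated KO-vector libraries read 89.3, 83.6, 85.4 and 85.1 CPM, inside and just above their vehicle range. The log2 response was 0.23 ± 0.03 in WT-vector cells (adjusted p = 1.8e-09) and 0.01 ± 0.03 in KO-vector cells (adjusted p = 0.77). The difference between these responses was -0.22 ± 0.04 (adjusted p = 0.0012). Over all tested genes 262 (1.57%) were called for it, and of the members 2 of 9 were, NFE2L2 and HMOX1. The response was 0.15 ± 0.03 in the labelled libraries (adjusted p = 3.9e-05), -0.01 ± 0.03 in F137S cells (adjusted p = 0.84) and 0.06 ± 0.03 in dMTS-DELE1 cells (adjusted p = 0.11, but 0.032 without vehicle replicate 3 and 0.024 without treated replicate 1). Under antimycin A NFE2L2 was thus lower in KO-vector than in WT-vector cells (-0.15 ± 0.03, adjusted p = 2.7e-05), in a comparison where 8 of 9 members and 48% of tested genes were called.

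KEAP1 (chr19:10486125-10503356), the gene of the NRF2 inhibitor, was lower in KO-vector, F137S and dMTS-DELE1 cells than in WT-vector cells. In vehicle its libraries read 104, 99.6, 95.7 and 101 CPM in WT-vector cells and 96.3, 97.6, 103 and 99.1 CPM in the labelled libraries. They read 71.6, 76.1, 78.2 and 69.6 CPM in KO-vector cells, 71.9, 75.6, 74.3 and 75.2 in F137S cells, and 70.3, 70.3, 65.0 and 72.3 in dMTS-DELE1 cells. The 3 lower lines overlapped each other and none reached the lowest WT-vector library. Against WT-vector cells the log2 differences were -0.44 ± 0.04 in KO-vector cells (1.35-fold lower, adjusted p = 2.7e-18), -0.43 ± 0.04 in F137S cells (adjusted p = 6.1e-18) and -0.52 ± 0.04 in dMTS-DELE1 cells (adjusted p = 1.3e-22).

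KEAP1 lies on the short arm of chromosome 19, and its neighbours were low in the same lines. Of 480 tested genes of that arm, 357 were lower and 17 higher in KO-vector than in WT-vector cells, with a median log2 difference of -0.50 and quartiles of -0.64 and -0.31. The other 16259 tested genes had a median of -0.0015. KEAP1 at -0.44 sat inside the arm's middle range, with 292 of the 480 genes at a lower value. Among the 10 tested genes with the nearest starts, 7 were lower, among them RAVER1 (-0.80), KRI1 (-0.71), PDE4A (-0.64) and CDC37 (-0.63). S1PR5 (0.42, adjusted p = 0.068), CDKN2D (-0.30, adjusted p = 0.062) and AP1M2 (-0.15, adjusted p = 0.77) did not pass. The arm's median was -0.50 for F137S cells against WT-vector cells and -0.57 for dMTS-DELE1 cells, and -0.0085 in the labelled libraries, where 0 arm genes were called by edgeR. A lower RNA level of KEAP1 itself and a lower level of the whole arm cannot be told apart here.

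**Figure D2:**
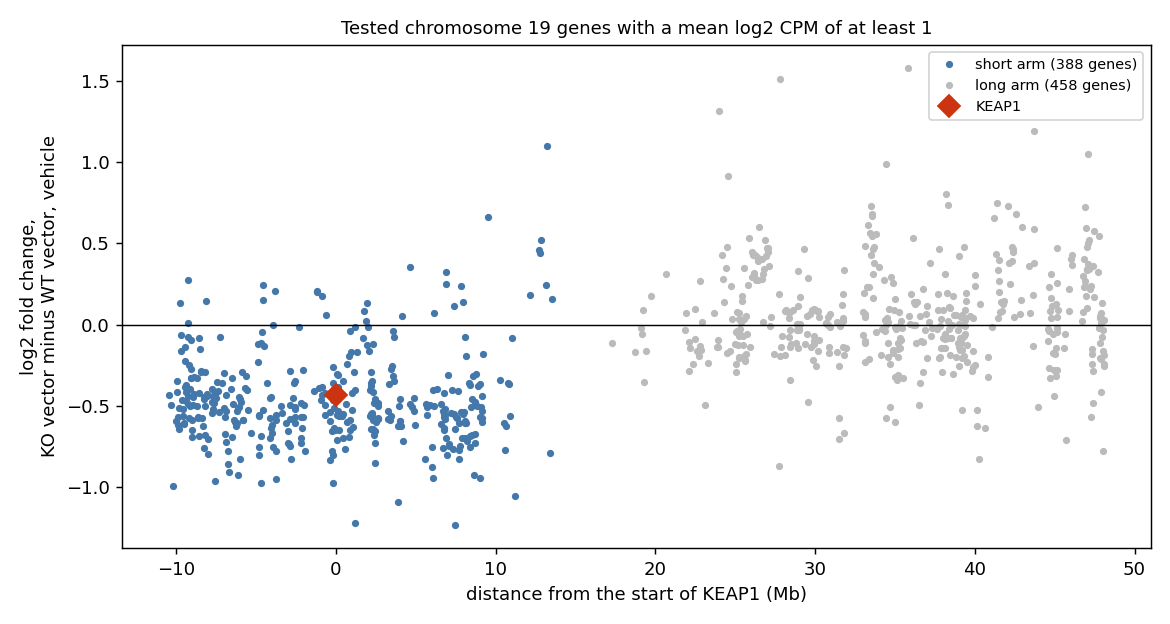
Log2 difference between KO-vector and WT-vector cells in vehicle (vertical axis) for tested genes of chromosome 19 with a mean log2 CPM of at least 1, against the distance from the start of KEAP1 (horizontal axis, Mb), with the 2 arms coloured apart and KEAP1 as a diamond. The short-arm genes lie mostly below 0, with KEAP1 at -0.44 beside a median of -0.50 over the 480 tested genes of the arm.

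Antimycin A raised KEAP1 slightly. The log2 response was 0.11 ± 0.03 in WT-vector cells (adjusted p = 0.0038), 0.10 ± 0.04 in KO-vector cells (adjusted p = 0.014), 0.09 ± 0.03 in the labelled libraries (adjusted p = 0.027) and 0.10 ± 0.04 in F137S cells (adjusted p = 0.018). In dMTS-DELE1 cells it was 0.04 ± 0.04 (adjusted p = 0.36). The call was lost in KO-vector cells without vehicle replicate 1 or 4 (adjusted p = 0.057 and 0.079), in F137S cells without vehicle replicate 1 or treated replicate 3 (0.066 and 0.12) and in the labelled libraries without vehicle replicate 1 (0.092). The short arm's median response was itself 0.10 in WT-vector cells, with 0.11 for KO-vector cells, close to the values of KEAP1.

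HMOX1 (chr22:35381096-35394207), the gene of heme oxygenase, which splits heme into biliverdin, iron and carbon monoxide, was higher in KO-vector, F137S and dMTS-DELE1 cells than in WT-vector cells. In vehicle its libraries read 31.3, 33.8, 34.5 and 33.8 CPM in WT-vector cells, 55.6, 55.0, 56.3 and 53.5 for KO-vector cells, 60.6, 59.0, 56.8 and 62.0 in F137S cells, and 104, 104, 97.3 and 109 in dMTS-DELE1 cells. The labelled libraries read 32.6, 33.4, 32.5 and 34.6 CPM. The order of levels was thus dMTS-DELE1, F137S, KO-vector and then WT-vector cells together with the labelled libraries, and only this last pair overlapped. KO-vector cells stood 1.65-fold above WT-vector cells (log2 0.72 ± 0.04, adjusted p = 1.5e-25), and dMTS-DELE1 cells 1.74-fold above F137S cells (0.80 ± 0.04, adjusted p = 3.1e-29) and 3.11-fold above WT-vector cells (1.64 ± 0.04, adjusted p = 5.7e-49). The step from KO-vector to F137S cells, 0.11 ± 0.04 with a 95% interval from 0.03 to 0.19, did not pass after adjustment (adjusted p = 0.61).

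Antimycin A lowered HMOX1 in each of the 5 lines. Treated libraries read 26.9, 24.1, 28.0 and 26.3 CPM in WT-vector cells, 36.6, 38.6, 37.1 and 34.5 for KO-vector cells, and 69.7, 64.7, 62.8 and 63.6 in dMTS-DELE1 cells. F137S libraries read 37.2, 37.5, 36.7 and 40.5 CPM and the labelled libraries 25.9, 26.7, 26.2 and 26.4 CPM. No treated library reached the vehicle range of its own line. The log2 response was -0.34 ± 0.04 in WT-vector cells (adjusted p = 6e-10), -0.59 ± 0.04 in KO-vector cells (adjusted p = 8.8e-21), -0.34 ± 0.04 in the labelled libraries (adjusted p = 6.2e-10), -0.65 ± 0.04 in F137S cells (adjusted p = 3e-23) and -0.67 ± 0.04 in dMTS-DELE1 cells (adjusted p = 2.3e-24). The fall was deeper in KO-vector than in WT-vector cells by -0.25 ± 0.06 (adjusted p = 0.016, and 0.054 without replicate 3 of the treated WT-vector libraries), and it was shallower in the labelled libraries than in KO-vector cells by 0.25 ± 0.06 (adjusted p = 0.017). HMOX1 was 1 of 9 members called for the latter difference, where 1.65% of tested genes were. Between dMTS-DELE1 and F137S cells the responses of HMOX1 differed by -0.02 ± 0.06 (adjusted p = 0.90).

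BACH1, the repressor of HMOX1, rose with antimycin A in WT-vector and KO-vector cells, by 0.51 ± 0.04 on the log2 scale in each. Its protein was not measured, and its part in the fall of HMOX1 was not tested. SLC48A1, which carries heme out of the lysosome, rose by 1.1 ± 0.07 and 1.08 ± 0.07, and the ferritin light chain FTL by 0.33 ± 0.02 and 0.35 ± 0.02. Of 21 other heme and iron genes, 10 rose and 4 fell in WT-vector cells, beside 51.9% of all tested genes called. Their median was 0.11, beside 0.01 over all tested genes. HMOX1 thus moved opposite to FTL and SLC48A1, which are also NRF2 targets.

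**Figure D3:**
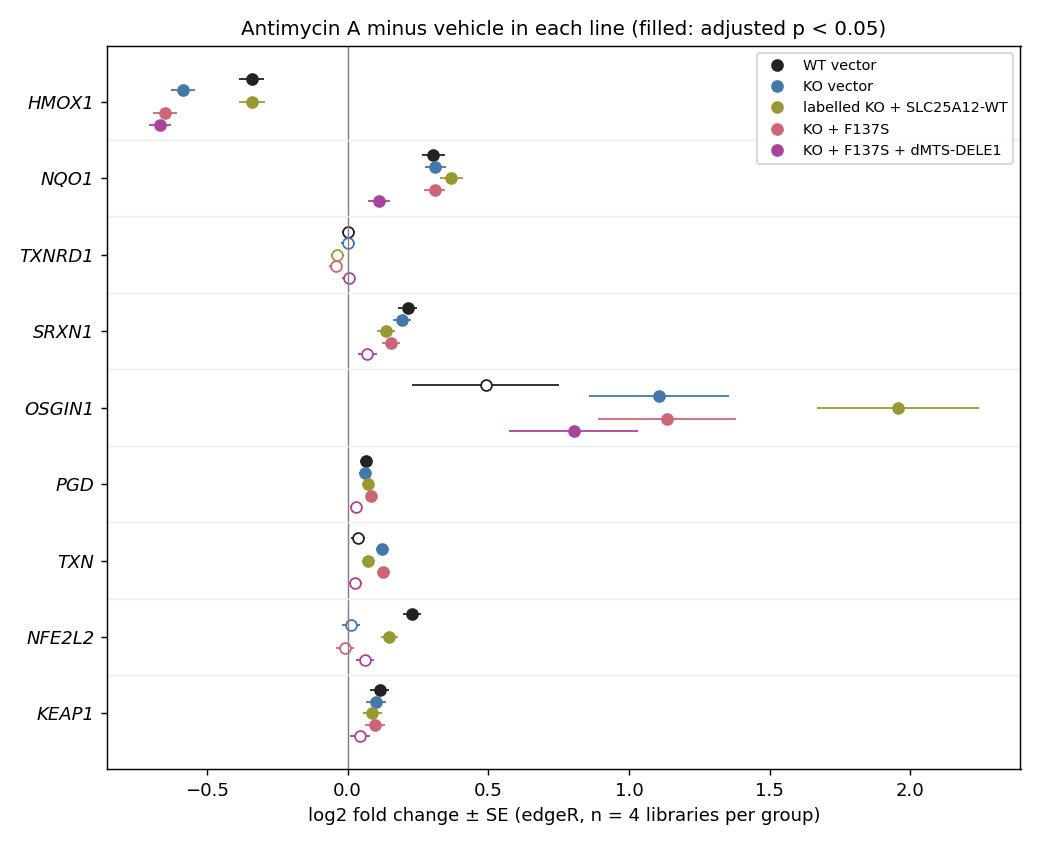
Log2 response to 40 nM antimycin A (horizontal axis) of each member in each of the 5 lines, with bars for the standard error and filled symbols where the adjusted p was under 0.05. HMOX1 lies left of 0 in each line, from -0.34 to -0.67, NQO1 lies right of 0, and OSGIN1 has the widest bars.

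NQO1 (chr16:69709401-69726560), the gene of a quinone reductase that uses NADPH, fell into 2 levels. In vehicle its libraries read 34.1, 32.6, 31.7 and 34.4 CPM in WT-vector cells and 34.8, 29.6, 34.4 and 35.7 in the labelled libraries. They read 64.2, 63.3, 67.3 and 64.1 CPM in KO-vector cells, 66.4, 64.2, 67.0 and 66.2 in F137S cells, and 63.7, 63.6, 61.7 and 60.9 in dMTS-DELE1 cells. The 3 lines with the high level lay well above every library of the other two. NQO1 was 1.95-fold higher in KO-vector than in WT-vector cells (log2 0.96 ± 0.04, adjusted p = 1.1e-34), the largest difference among the members in this comparison. It differed by 0.03 ± 0.04 between F137S and KO-vector cells (95% interval -0.05 to 0.10, adjusted p = 0.96) and by -0.08 ± 0.04 between dMTS-DELE1 and F137S cells (adjusted p = 0.094).

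Antimycin A raised NQO1 in each of the 5 lines. Treated libraries read 43.1, 39.9, 39.1 and 41.9 CPM in WT-vector cells, 81.5, 81.4, 81.1 and 77.2 for KO-vector cells, 82.4, 81.0, 79.2 and 84.1 in F137S cells, and 66.7, 67.1, 65.8 and 70.3 in dMTS-DELE1 cells. The labelled libraries read 44.1, 42.0, 42.9 and 44.5 CPM, and in each line the treated libraries lay above the vehicle libraries. The log2 response was 0.30 ± 0.04 in WT-vector cells (adjusted p = 1.2e-09), 0.31 ± 0.04 in KO-vector cells (adjusted p = 4e-11), 0.31 ± 0.04 in F137S cells (adjusted p = 4.7e-11), and 0.37 ± 0.04 in the labelled libraries (adjusted p = 1.6e-12). It was 0.11 ± 0.04 in dMTS-DELE1 cells (adjusted p = 0.016), a call that was lost without vehicle replicate 4 (adjusted p = 0.052) or treated replicate 4 (adjusted p = 0.13). The response of dMTS-DELE1 cells was smaller than that of F137S cells by -0.20 ± 0.05 (adjusted p = 0.0068), in a comparison of responses where 2 of 9 members and 11.9% of tested genes were called. Between KO-vector and WT-vector cells the responses differed by 0.01 ± 0.06, with a 95% interval from -0.11 to 0.12 (adjusted p = 0.98). NQO1 thus rose while HMOX1 fell in the same treated libraries.

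The thioredoxin members moved in different directions between lines. TXN (chr9:110243810-110256507) encodes thioredoxin, TXNRD1 (chr12:104215779-104350307) the reductase that recharges it with NADPH, and SRXN1 (chr20:646615-653200) sulfiredoxin, which repairs overoxidised peroxiredoxins. In vehicle TXN stood at 302 ± 2.72 CPM in WT-vector cells, 284 ± 7.22 in KO-vector cells, 267 ± 1.55 in F137S cells and, lowest, 239 ± 4.85 in dMTS-DELE1 cells. TXNRD1 ran the other way, at 290 ± 4.46, 308 ± 8.06, 321 ± 11.1 and 374 ± 11.7 CPM in the same lines. SRXN1 stood at 65.1 ± 0.81, 56.0 ± 0.61, 55.5 ± 0.83 and 51.6 ± 1.83 CPM. In KO-vector against WT-vector cells the log2 differences were -0.09 ± 0.02 for TXN (adjusted p = 0.00085), 0.09 ± 0.02 for TXNRD1 (adjusted p = 0.0016) and -0.22 ± 0.03 for SRXN1 (adjusted p = 4.2e-08), each under 1.2-fold.

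The differences of these genes widened in dMTS-DELE1 cells. TXNRD1 libraries of dMTS-DELE1 cells read 370, 365, 391 and 371 CPM in vehicle, all above the 324, 311, 336 and 316 CPM of F137S cells. TXN libraries read 241, 233, 237 and 244 CPM against 265, 269, 265 and 267 CPM, with no overlap. The log2 differences were 0.22 ± 0.02 for TXNRD1 (adjusted p = 1.3e-12), -0.16 ± 0.02 for TXN (adjusted p = 9.3e-08) and -0.11 ± 0.03 for SRXN1 (adjusted p = 0.0078). The SRXN1 call was lost in a fit of the compared groups alone (adjusted p = 0.085) and without F137S replicate 2 (0.061) or 3 (0.074).

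Antimycin A left TXNRD1 without a call in each of the 5 lines, with log2 responses from -0.04 to 0.00 and intervals between -0.09 and 0.05. SRXN1 rose from 66.3, 64.9, 64.6 and 64.6 CPM to 72.7, 76.6, 75.4 and 77.1 CPM in WT-vector cells, with no overlap. Its log2 response was 0.21 ± 0.03 there (adjusted p = 4.2e-08), 0.19 ± 0.03 in KO-vector cells (adjusted p = 7.3e-07), 0.15 ± 0.03 in F137S cells (adjusted p = 5.7e-05), 0.14 ± 0.03 in the labelled libraries (adjusted p = 0.00027) and 0.07 ± 0.03 in dMTS-DELE1 cells (adjusted p = 0.096). TXN rose by 0.12 ± 0.02 in KO-vector cells (adjusted p = 7.8e-06) and 0.13 ± 0.02 in F137S cells (adjusted p = 5.7e-06). In the labelled libraries it rose by 0.07 ± 0.02 (adjusted p = 0.0066, and 0.078 without vehicle replicate 1). Its values were 0.04 ± 0.02 in WT-vector cells (adjusted p = 0.19, and 0.025 without treated replicate 2) and 0.03 ± 0.02 in dMTS-DELE1 cells (adjusted p = 0.42). The TXN response was smaller in dMTS-DELE1 than in F137S cells by -0.10 ± 0.03 (adjusted p = 0.04), a call that was lost under 5 alternatives, at adjusted p from 0.052 to 0.10. It was also lost without F137S vehicle replicate 1 (0.062), dMTS-DELE1 vehicle replicate 4 (0.10) or dMTS-DELE1 treated replicate 1 (0.094).

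Among 17 other genes of the thioredoxin and peroxiredoxin system, 10 rose and 2 fell with antimycin A in WT-vector cells (median 0.06). The share called over all tested genes was 51.9%. SESN2, a stress-induced sestrin, rose by 1.19 ± 0.03, and TXNIP, the thioredoxin-binding protein, fell by 0.62 ± 0.05. In vehicle 2 were higher and 8 lower in KO-vector than in WT-vector cells (median -0.05), where 48.3% of all tested genes were called. PRDX2 was the lowest at -0.58 ± 0.03, and it lies on the chromosome 19 short arm, whose median was -0.50. In dMTS-DELE1 against F137S cells 4 of the 17 were higher and 9 lower (median -0.10), beside 41.8% of all tested genes called. SESN2 read 1.51 ± 0.03, TXNIP 0.80 ± 0.05 and PRDX1 -0.30 ± 0.02.

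PGD (chr1:10399064-10420511), the gene of the 6-phosphogluconate dehydrogenase of the pentose phosphate pathway, which makes NADPH, was higher in KO-vector and F137S cells. In vehicle its libraries read 232, 229, 230 and 225 CPM in WT-vector cells, 304, 306, 292 and 301 for KO-vector cells, 290, 284, 296 and 288 in F137S cells, and 252, 258, 267 and 261 in dMTS-DELE1 cells. Those of dMTS-DELE1 cells lay between WT-vector cells and the other two lines without overlap. The log2 difference was 0.39 ± 0.02 between KO-vector and WT-vector cells (1.31-fold, adjusted p = 2.9e-28) and -0.16 ± 0.02 between dMTS-DELE1 and F137S cells (adjusted p = 1e-09). Antimycin A raised PGD by 0.06 to 0.08 on the log2 scale in WT-vector, KO-vector and F137S cells and the labelled libraries, at most 1.06-fold. In dMTS-DELE1 cells its response was 0.03 ± 0.02 (adjusted p = 0.27). The KO-vector call was lost with no filter on low counts (adjusted p = 0.051).

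As for KEAP1, the tested genes around PGD differed between KO-vector and WT-vector cells in the same direction as PGD. Within 2 Mb on either side, a span chosen after these values were seen, 36 other tested genes had a mean log2 CPM of at least 1. Of these, 34 were higher and 2 lower in KO-vector cells, with a median log2 difference of 0.34 and quartiles of 0.25 and 0.49. PGD at 0.39 lay inside that range, with 15 genes above and 21 below it. In F137S against WT-vector cells 31 of the 36 were higher, with a median of 0.35. H6PD, another NADPH-making dehydrogenase, was higher by 0.41 ± 0.04 in KO-vector cells.

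The same span around HMOX1 and NQO1 gave another picture, in a comparison where 48.3% of all tested genes were called. Around NQO1, 16 of 54 genes were higher and 14 lower in KO-vector than in WT-vector cells, with a median of 0.01, and 0 of 54 lay above NQO1's 0.96. Around HMOX1, 2 of 17 were higher and 6 lower, with a median of -0.03, and 0 of 17 lay above HMOX1's 0.72. Around SRXN1, 7 of 20 were higher and 2 lower, with a median of 0.06, and 0 of 20 lay below the -0.22 of SRXN1. Around OSGIN1, whose own -0.04 was not called, 5 of 19 were higher and 8 lower, with a median of -0.06. Whether the number of gene copies differs between the lines was not tested.

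**Figure D4:**
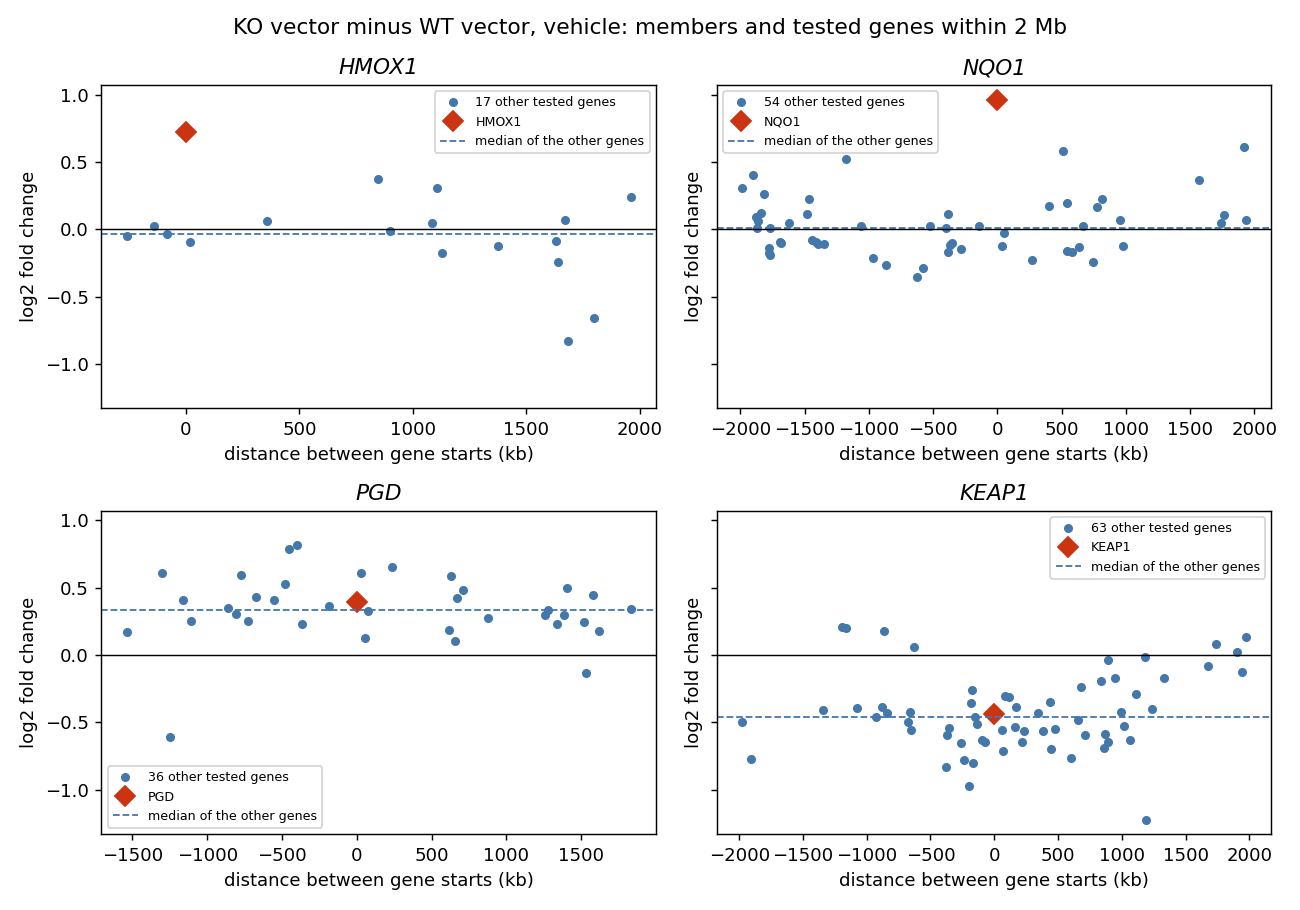
Log2 difference between KO-vector and WT-vector cells in vehicle (vertical axis) against the distance from the member's start (horizontal axis, kb) for HMOX1, NQO1, PGD and KEAP1 (diamonds) and the tested genes within 2 Mb (circles), with the circles' median dashed. HMOX1 and NQO1 lie above all their neighbours, whereas PGD at 0.39 and KEAP1 at -0.44 lie near the medians of 0.34 and -0.46.

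Other enzymes that make NADPH or work in the pentose phosphate pathway moved in both directions. Of 9 such genes, 2 were higher, among them H6PD, a neighbour of PGD as described above, and 4 lower in KO-vector than in WT-vector cells. The share called over all tested genes was 48.3%. The lower ones included PGLS (-0.31 ± 0.06), TKT (-0.29 ± 0.02) and TALDO1 (-0.17 ± 0.02). PGLS lies on the chromosome 19 short arm, whose median in this comparison was -0.50. In dMTS-DELE1 against F137S cells 3 of the 9 were higher and 5 lower, beside 41.8% of all tested genes called. IDH1 read 0.24 ± 0.03, TALDO1 -0.25 ± 0.02 and TKT -0.24 ± 0.02. With antimycin A, 6 of the 9 rose and 2 fell in WT-vector cells, beside 51.9% of all tested genes called. PGLS rose most, at 0.30 ± 0.06.

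OSGIN1 (chr16:83953240-83966332), the gene of an oxidative stress-induced growth inhibitor, was read at low depth, and whether each count stands for 1 read pair was not tested. Raw counts in vehicle were 12, 18, 35 and 22 in WT-vector cells, 28, 25, 16 and 20 for KO-vector cells and 11, 18, 8 and 4 in the labelled libraries. With antimycin A they were 29, 25, 37 and 35 in WT-vector cells, 46, 54, 59 and 37 for KO-vector cells, and 45, 44, 36 and 40 in the labelled libraries. The WT-vector ranges overlapped and the others did not. OSGIN1 rose by 1.11 ± 0.25 on the log2 scale in KO-vector cells (2.15-fold, adjusted p = 0.00011), 1.96 ± 0.29 in the labelled libraries (adjusted p = 1.4e-08), 1.13 ± 0.25 in F137S cells (adjusted p = 6.1e-05) and 0.80 ± 0.23 in dMTS-DELE1 cells (adjusted p = 0.0037). In WT-vector cells the value was 0.49 ± 0.26 (adjusted p = 0.11). Without replicate 3 of the WT-vector vehicle libraries, the one with 35 counts, it was 0.83 (adjusted p = 0.012). The responses of KO-vector and WT-vector cells differed by 0.62 ± 0.36, with a 95% interval from -0.11 to 1.34 (adjusted p = 0.54). Under antimycin A OSGIN1 was higher in KO-vector than in WT-vector cells by 0.58 ± 0.24 (adjusted p = 0.038), a call that was lost without replicate 1 or 2 of the WT-vector libraries (0.092 and 0.13) or replicate 1, 2 or 3 of the KO-vector libraries (0.05, 0.097 and 0.14), and by the DESeq2 Wald test (0.05).

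No member was called between the line given F137S and the KO-vector line. In vehicle 0 of 9 members were called between them by edgeR (0 by the DESeq2 Wald test), where 0.0836% of tested genes were called. At an unadjusted p under 0.05 by edgeR it was 4 of 9 members, beside 1015 of 16739 tested genes. Under antimycin A 0 of 9 were called (0 by DESeq2), beside 0.114% of tested genes. At an unadjusted p under 0.05 it was 1 of 9, beside 1058 of 16739 tested genes. For the difference of response 0 of 9 were called (0 by DESeq2), beside 0% of tested genes. At an unadjusted p under 0.05 it was 0 of 9, beside 711 of 16739 tested genes. A p that misses the threshold does not show equality. For NQO1 the interval in vehicle reached from -0.05 to 0.10, for KEAP1 from -0.06 to 0.08 and for TXN from -0.14 to -0.04. The TXN libraries of the 2 lines did not overlap in vehicle (adjusted p = 0.14), and neither did those of HMOX1.

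Between the labelled libraries and WT-vector cells 0 of 9 members were called in vehicle by edgeR (2 at an unadjusted p under 0.05, 0 by DESeq2) beside 0% of tested genes, and 0 of 9 under antimycin A (2 unadjusted, 0 by DESeq2) beside 0.00597%. For the difference of response 0 of 9 were called (1 unadjusted, 0 by DESeq2) beside 0%. At an unadjusted p under 0.05, tested genes were 778 of 16739 in vehicle, 805 under antimycin A and 756 for the difference of response. Against KO-vector cells 7 of 9 were called in vehicle, 2 higher and 5 lower, where 47.8% of tested genes were called, and 7 of 9 under antimycin A beside 48.2%. OSGIN1 at -1.04 ± 0.31 (adjusted p = 0.004) was among them in vehicle, although its groups overlapped, and its 95% interval against WT-vector cells reached from -1.70 to -0.45 without a call (adjusted p = 1.00).

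In dMTS-DELE1 cells, which express DELE1 at 5344 ± 84.7 CPM beside 45.9 ± 2.15 CPM in F137S cells, the members split. SLC25A12 differed too, at 3716 ± 25.7 CPM beside 1853 ± 18.3 CPM in vehicle, and the parts of the 2 genes cannot be told apart. In vehicle HMOX1, NFE2L2 and TXNRD1 were higher and PGD, TXN, SRXN1 and KEAP1 lower than in F137S cells, 7 of 9 beside 41.8% of tested genes. In this comparison the chromosome 19 short arm, where KEAP1 lies, had a median log2 difference of -0.08. Of its 480 tested genes, 60 were higher and 158 lower. The KEAP1 call (-0.10 ± 0.04, adjusted p = 0.024) rested on overlapping libraries. It was lost by the DESeq2 Wald test (0.061), in the compared groups alone (0.11), and without F137S replicate 2, 3 or 4 (0.18, 0.11 and 0.16) or dMTS-DELE1 replicate 1 or 3 (0.093 and 0.15). Under antimycin A 3 were higher and 5 lower, beside 54.3% of tested genes, and NQO1 was among the lower ones (-0.28 ± 0.04, adjusted p = 1.5e-09). With antimycin A, NQO1 and OSGIN1 rose and HMOX1 fell in these cells, 3 of 9 beside 34.9% of tested genes. The counts were 7 of 9 beside 51% in KO-vector cells, 7 of 9 beside 51.2% in F137S cells and 8 of 9 beside 52.3% in the labelled libraries. Against WT-vector cells in vehicle, 8 of 9 members were called in F137S cells beside 49.1% of tested genes and 9 of 9 in dMTS-DELE1 cells beside 61.8%. The OSGIN1 call among the latter (0.58 ± 0.26, adjusted p = 0.047) was lost without replicate 1, 2 or 4 of WT-vector cells (adjusted p = 0.21, 0.12 and 0.071) or replicate 1 or 2 of dMTS-DELE1 cells (0.11 and 0.12). It was also lost with no filter (0.05), by the DESeq2 Wald test (0.052) and in the compared groups alone (0.058).

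**Figure D5:**
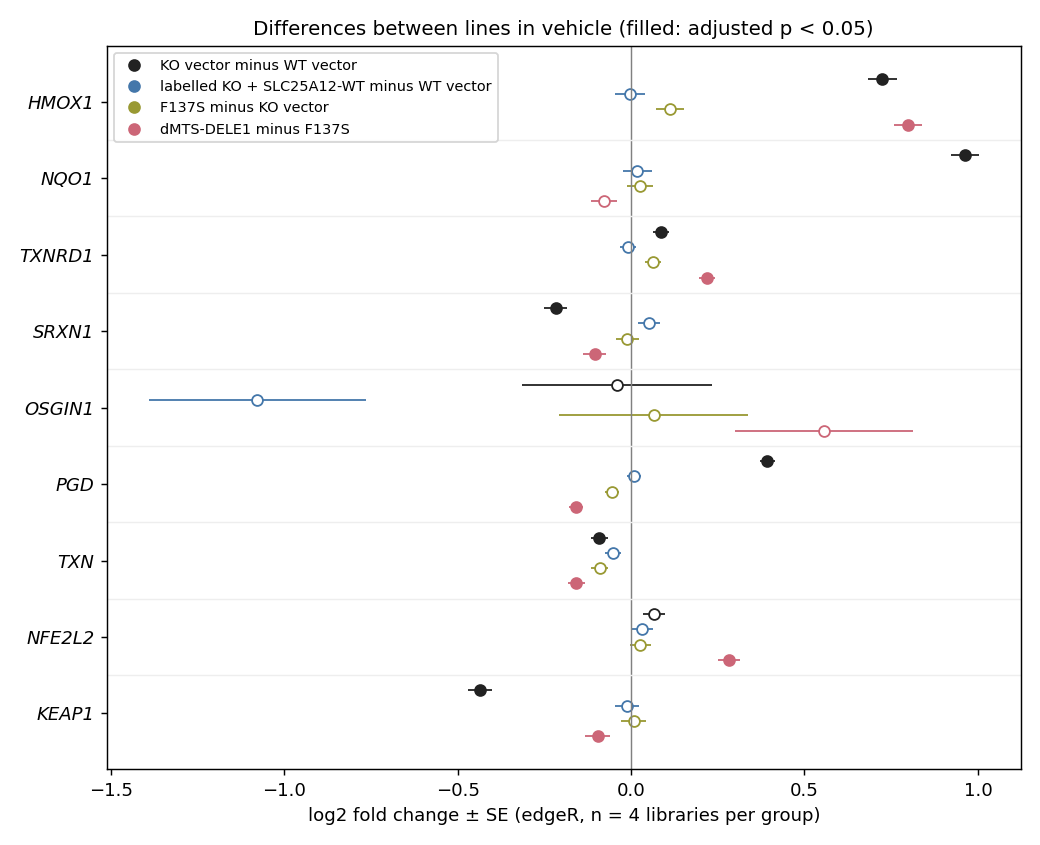
Log2 differences between 4 pairs of lines in vehicle (horizontal axis) for each member, with bars for the standard error and filled symbols where the adjusted p was under 0.05. HMOX1 and NQO1 have the largest positive values between KO-vector and WT-vector cells, 0.72 and 0.96, and KEAP1 the lowest, -0.44.

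Of 40 further known NRF2 target genes, 31 were tested, and as a list they did not follow NQO1. In KO-vector against WT-vector cells 6 were higher and 13 lower, beside 48.3% of all tested genes called. Their median was -0.14, beside -0.01 over all tested genes. The cystine transporter SLC7A11 (0.60 ± 0.03), the autophagy receptor SQSTM1 (0.50 ± 0.03) and SLC48A1 (0.34 ± 0.07) were higher, as was GCLM (0.16 ± 0.03), a subunit of the enzyme that starts glutathione synthesis. The glutathione transferase MGST1 (-0.85 ± 0.06) and TRIM16 (-0.49 ± 0.06) were lower. GCLC, the catalytic partner of GCLM, read 0.02 ± 0.03 (adjusted p = 0.62).

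In dMTS-DELE1 against F137S cells 7 of the 31 were higher and 13 lower, beside 41.8% of all tested genes called. Their median was -0.10, beside -0.02 over all tested genes. SLC7A11 was again among the higher genes at 0.76 ± 0.03, with SQSTM1 at 0.32 ± 0.02, while PRDX1 and CBR1 (-0.28 ± 0.04) were lower. SLC7A11, SQSTM1 and SESN2 are also known targets of ATF4, the transcription factor of the integrated stress response. ATF4 read 634 ± 4.67 CPM in KO-vector cells and 600 ± 5.26 in WT-vector cells in vehicle, with 648 ± 2.31 in F137S cells beside 683 ± 15.0 in dMTS-DELE1 cells. The ATF4 protein was not measured, and its part in the levels of these genes was not tested.

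With antimycin A, 15 of the 31 rose and 10 fell in WT-vector cells, with a median of 0.06. The share called over all tested genes was 51.9%. SLC48A1 and the transporter ABCC2 (0.73 ± 0.14) rose most, and SQSTM1 rose by 0.43 ± 0.03, whereas TRIM16 fell by 0.69 ± 0.06 and GCLM by 0.11 ± 0.03. In KO-vector cells 14 rose and 7 fell, beside 51% of all tested genes called, and in dMTS-DELE1 cells 9 rose and 7 fell, beside 34.9%. SLC7A11 fell by 0.56 ± 0.03 in KO-vector cells and by 0.08 ± 0.04 in WT-vector cells.

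The regulators around NRF2 changed with antimycin A in both directions. Of 22, 8 rose and 9 fell in WT-vector cells, beside 51.9% of all tested genes called. MAFF (0.68 ± 0.15), BACH1 (0.51 ± 0.04) and MAFG (0.48 ± 0.03), which encode partners or competitors of NRF2, rose. GSK3B, whose kinase marks NRF2 for degradation, fell by 0.76 ± 0.03, and the ligase genes BTRC and CUL3 fell by 0.36 ± 0.04 and 0.36 ± 0.03. In KO-vector against WT-vector cells 5 of the 22 were higher and 10 lower in vehicle, beside 48.3% of all tested genes called. BACH1 read -0.23 ± 0.04 and MAFG 0.25 ± 0.03. In dMTS-DELE1 against F137S cells 8 of the 22 were higher and 8 lower, beside 41.8% of all tested genes called, with MAFG at 0.53 ± 0.03. Among 11 superoxide and peroxide enzymes, 5 rose and 1 fell with antimycin A in WT-vector cells, with GPX3 at 0.45 ± 0.06. The share called over all tested genes was 51.9%. Between KO-vector and WT-vector cells 5 were higher and 3 lower, beside 48.3% of all tested genes called. GPX4, on the chromosome 19 short arm with its median of -0.50, read -0.42 ± 0.03.

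The genes whose level was most like a member's were ranked by Pearson's r over the 10 group means of log2 CPM, which share 5 lines and so are not independent. NQO1 was closest to CPE (r = 0.999), HMOX1 to RALA (0.989), TXNRD1 to ZNF22 (0.995), TXN to ARL6IP4 (0.994), NFE2L2 to RCN1 (0.987) and OSGIN1 to BFSP1 (0.968). KEAP1 was closest to QTRT1, BABAM1 and LSM4 (0.997 each), and PGD to MLLT11 (0.994), AGRN (0.993) and SDHB (0.992). QTRT1 starts 215 kb from KEAP1, and BABAM1 and LSM4 lie on the same short arm, which differed between the lines as described above. AGRN and SDHB lie on the chromosome arm of PGD. No other member was among the 3 nearest genes of any member.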

How the data were processed

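The authors deposited 1 table of raw counts per gene symbol for 40 libraries. The genome was hg38 and the tools were featureCounts 2.0.6 and HISAT2 2.1.0, per the submitters' processing notes. The annotation and strand setting were not given in the sources used here. Between 55.1% and 58.7% of counts from 1 to 20 were even in a library, so some read pairs may be counted more than 1 time, which was not tested. Low raw counts such as those of OSGIN1 may then stand for fewer read pairs.

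Libraries were grouped by their labels. The 16739 genes that passed filterByExpr were TMM-scaled and fitted in R 4.3.3 with edgeR 4.0.16 (robust quasi-likelihood, 1 coefficient per group, 40 libraries). The 22 comparisons were contrasts of this fit, with Benjamini-Hochberg adjustment over all tested genes and a call at 0.05. Standard errors come from the test statistic, and intervals are 95%. CPM use totals over tested genes. Positions and promoters are RefSeq's for GRCh38.p14. The common biological coefficient of variation was 0.0509.

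The members and lists were chosen with earlier results of these data known. Named besides the 9 members were up to 4 called genes each way of a list with the largest changes, 5 neighbours of KEAP1 on each side, 3 most similar genes per member (mean log2 CPM of at least 1 with a prior count of 2), SLC25A12, DELE1 and ATF4. GCLC, IDH1, FTL, GCLM, PRDX1, SLC7A11 and others outside that rule in a comparison were named for their role after their values were seen. Alternatives were DESeq2 1.42.0 size factors and Wald test, no filter, compared groups alone, a replicate block, counts halved, no labelled SLC25A12-WT libraries, and each library left out. The procedure was tested on simulated data.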

Additional observations from a re-analysis of the deposited data

Results flagged for a closer look

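Dixon's criterion was applied to each of the 9 members in each of the 10 groups of 4 libraries. It flags about 1 in 20 such sets by chance. In 2 sets 1 library stood apart, which is no more than that rate would give. NQO1 read 77.2 CPM in replicate 4 of the antimycin-treated KO-vector libraries, where the others ran from 81.1 to 81.5 CPM. KEAP1 read 99.4 CPM in replicate 4 of the antimycin-treated libraries labelled KO plus SLC25A12-WT, where the others ran from 107 to 108 CPM.

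The antimycin response of 4 members differed between lines by the test of the difference itself. For KO-vector minus WT-vector cells the log2 difference of response was -0.25 for HMOX1 and -0.22 for NFE2L2, and for the libraries labelled KO plus SLC25A12-WT minus KO-vector cells it was 0.25 for HMOX1. For dMTS-DELE1 minus F137S cells it was -0.20 for NQO1 and -0.10 for TXN. These comparisons share control libraries. A level that is already higher in vehicle goes with each HMOX1 difference, 55.1 CPM in KO-vector cells beside 33.3 CPM in WT-vector cells. In vehicle HMOX1 was also higher in dMTS-DELE1 than in F137S cells, at 104 beside 59.6 CPM, but their responses differed by -0.02 without a call. The part of the vehicle level in the differences was not tested.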

How the results depend on the processing

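No member's called fold change reversed its direction under the alternatives run. Values near 0 that were not called did change sign, such as OSGIN1 between KO-vector and WT-vector cells in vehicle, -0.04 in the report and -0.24 to 0.28 with 1 library left out. Of the members' fold changes, 14 lost a call, 5 gained one and 1302 kept their side of the threshold under alternatives other than leaving out a library, and 32 lost one, 9 gained one and 1903 kept their side with 1 library left out. NFE2L2 between KO-vector and WT-vector cells in vehicle passed under DESeq2 size factors (adjusted p = 0.046), no filter (0.036), compared groups alone (0.043), counts halved (0.023) and without the labelled libraries (0.033). The members called for the difference of response between dMTS-DELE1 and F137S cells, 2 in the report, were 1 with no filter, DESeq2 size factors, counts halved, the DESeq2 Wald test, and without the labelled libraries, and 1 to 3 with 1 library left out. Those for KO-vector minus WT-vector cells were 1 to 2, and for the labelled libraries minus KO-vector cells 1 to 2, with 1 library left out. The genes called over the whole table for that last difference, 276, were 180 to 247. Between F137S and KO-vector cells the genes called, 14 in vehicle, were 22 by the DESeq2 Wald test, 7 with counts halved and 5 to 11 with 1 library left out. Under antimycin A, 19 became 32 by the DESeq2 Wald test and 12 to 28 with 1 library left out. For their difference of response, 0 became 1 in the compared groups alone and 1 without the labelled libraries. Between the labelled libraries and WT-vector cells, 0 in vehicle became 1 in the compared groups alone. The 1 gene under antimycin A became 0 by the DESeq2 Wald test, in the compared groups alone, with the replicate block and with counts halved, and was 0 to 1 with 1 library left out.

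Replicate numbers did not pair libraries: residuals of libraries with the same number correlated at -0.00102 on average, from -0.0588 to 0.0510 over 180 pairs. With the replicate number as a block, OSGIN1 in dMTS-DELE1 against WT-vector cells in vehicle, which was called in the report, lost its call (0.57, adjusted p = 0.053). OSGIN1 had the lowest depth of the members, with 4 to 67 counts per library. With counts halved, TXN lost its call for the difference of response between dMTS-DELE1 and F137S cells (-0.09, adjusted p = 0.071).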
